A study of Homo sapiens with 9 samples.

Results

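Z138 is an established mantle cell lymphoma line, and the data compared it with a pair of lines derived from it, 1 with SOX11 knocked out and 1 in which SOX11 was put back. This account is about the genes that both edited lines share: those in which knockout and rescue were alike and both differed from wild type. A gene was counted as alike if the mean of both edited lines against wild type, the knockout against wild type and the rescue against wild type were each called (limma, Benjamini-Hochberg adjusted p under 0.05), the 2 lines moved the same way, and the 95% interval of rescue minus knockout lay within 0.5 times the difference of the edited lines from wild type. By that rule 59 of 11542 tested genes (0.511%) were members, 10 higher and 49 lower in the edited lines. The measured values chose these genes, so their levels and adjusted p-values are given as a description.

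The groups were wild type, SOX11 knockout (SOX11KO in the labels) and SOX11 rescue (SOX11Resc), with 3 RNA-seq libraries each, 1 in each of 3 labelled batches, all grown in the same medium. The 6 libraries of the edited lines were set against the 3 of wild type. The labels do not say how SOX11 was removed or restored, whether either line is a single clone, whether the rescue was made from the knockout, or whether replicates were separate cultures. The p-values therefore speak of the spread among these 9 libraries alone, and what follows from editing, cloning or time in culture cannot be told apart. The labels also name a poly(A) kit, a ribosome-depleted total RNA kit and more than 1 read layout without saying which library had which. The part of kit or layout in any difference from wild type was not tested.

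SOX11 is a transcription factor of the HMG-box family, active in the developing nervous system, silent in normal B cells and present in most mantle cell lymphomas. A knockout compared with its parent reports both the loss of the factor and whatever else differs between the lines. A rescue made from that knockout helps to tell these apart, since genes under the factor's control would move back toward the parent. The genes below stayed nearer to the other edited line than to wild type, and in 8 of them rescue and knockout were still called different.

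The estimated depth was 30.7 to 40.7 M reads per library. SOX11 had 3800.4, 3845.1 and 3002.8 normalized counts in wild type, whereas the knockout had 901, 1334.9 and 862 and the rescue 12818.2, 13849.3 and 12714.8. It was thus lower in the knockout without being absent, and above wild type in the rescue, with no overlap among the 3 groups. RNA of an edited gene can persist, so this level does not measure the protein. B cell markers were high in every library, MS4A1 at 530.0 to 673 and CCND1 at 3041.4 to 3823.2 CPM, while CD5, a usual mantle cell lymphoma marker, reached 0.1 CPM at most. Mitochondrially encoded genes took 1.51% to 2.46% of counts in wild type and 2.0% to 2.82% in the edited lines, and none of the 13 was called.

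OXCT1, CRMP1 and MYO3A stood at or near 0 in the edited lines, and their promoters are shown because the whole gene was on in wild type and off, or nearly so, in both lines. The 250 bases before each RefSeq start (GRCh38.p14) are given 5′ to 3′ on the gene's strand, with CG dinucleotides, the sites of DNA methylation, in capitals. They lie at chr5:41870426-41870675 on the minus strand for OXCT1, chr4:5893087-5893336 on the minus strand for CRMP1 and chr10:25933979-25934228 on the plus strand for MYO3A.
OXCT1: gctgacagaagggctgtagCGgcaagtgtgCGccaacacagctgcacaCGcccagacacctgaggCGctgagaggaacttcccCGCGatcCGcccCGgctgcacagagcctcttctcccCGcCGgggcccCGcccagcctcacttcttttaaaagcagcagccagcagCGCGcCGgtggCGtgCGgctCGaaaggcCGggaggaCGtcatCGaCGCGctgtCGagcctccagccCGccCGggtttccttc
CRMP1: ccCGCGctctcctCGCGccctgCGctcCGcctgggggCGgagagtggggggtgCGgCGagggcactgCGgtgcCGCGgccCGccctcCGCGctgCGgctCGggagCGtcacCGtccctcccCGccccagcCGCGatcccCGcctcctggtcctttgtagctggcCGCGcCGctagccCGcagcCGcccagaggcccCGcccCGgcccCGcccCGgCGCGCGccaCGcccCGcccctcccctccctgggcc
MYO3A: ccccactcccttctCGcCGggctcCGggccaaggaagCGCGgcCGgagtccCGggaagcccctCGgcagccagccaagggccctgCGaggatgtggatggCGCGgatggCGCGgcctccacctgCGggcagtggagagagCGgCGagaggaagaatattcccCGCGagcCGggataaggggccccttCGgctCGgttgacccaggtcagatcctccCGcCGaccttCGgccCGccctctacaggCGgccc
The OXCT1 stretch holds 25 CG dinucleotides, that of CRMP1 37 and that of MYO3A 26. With G and C at 68.0%, 82.8% and 72.0% of bases, these stretches are rich in CG, as are most promoters. DNA methylation was not measured here.

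OXCT1 encodes the mitochondrial transferase that lets cells burn ketone bodies (chromosome 5, 41730065 to 41870519 in GENCODE 29, GRCh38). It had 263, 240.0 and 257 normalized counts in wild type, against 0, 1.35 and 8.85 for the knockout and 0 for each rescue library. The wild-type libraries were close together and far above all 6 edited ones. On the deposited variance-stabilized log2 scale, which compresses changes of genes with low counts, the edited lines were lower by 1.09 (limma difference -1.09, SE 0.045, adjusted p = 7.04e-07).

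CRMP1, a collapsin response mediator that acts on the cytoskeleton of growing axons (chromosome 4, 5748084 to 5893058), had 91.3, 90.1 and 110.0 normalized counts in wild type and 0 in all 6 edited libraries. Against a floor of 3 reads per library, its mean was at least 31.7-fold lower in the edited lines. MYO3A, a motor protein of sensory hair cells (chromosome 10, 25934071 to 26212536), had 90.2, 90.7 and 67.8 normalized counts in wild type and likewise 0 in the 6 others, at least 27.1-fold lower against the same floor. Both genes were at 0 in every edited library at this depth.

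MGST2, a microsomal glutathione transferase, fell from 54.9 ± 4.66 normalized counts (SD, n = 3) to 2.17 ± 2.37 in the knockout and 2.83 ± 0.969 in the rescue. RIBC2 had 51.8, 40.7 and 43.8 in wild type, 0 in the knockout libraries and 0, 1.33 and 0 in the rescue. Across all genes of the table outside chromosome Y, 5 had a mean of at least 50 normalized counts in wild type and under 5 in both edited lines. These were OXCT1, CRMP1, MYO3A, MGST2 and the pseudogene SLC2A3P1, which had 185 in 1 wild-type library and 0 in the other wild-type libraries and was not tested. No gene was under 5 in wild type and at least 50 in both lines.

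**Figure D1:**
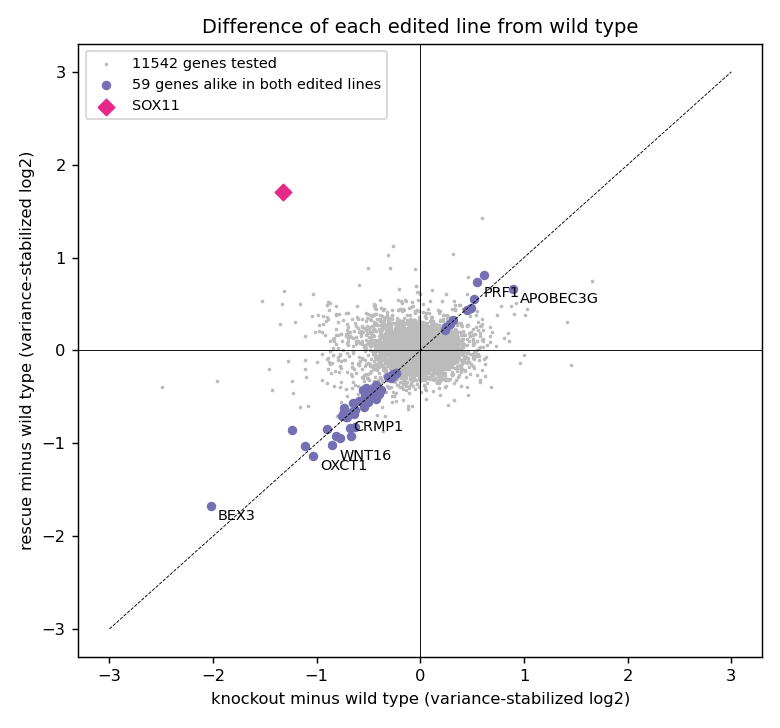
Each grey point is 1 of the 11542 tested genes, placed by its difference between knockout and wild type (x axis) and between rescue and wild type (y axis) on the variance-stabilized log2 scale; purple points are the 59 alike genes, the diamond is SOX11 and the dashed line marks equal differences. Both axes share the wild-type libraries. The alike genes lie along the dashed line, BEX3 farthest from 0 among them, while SOX11 lies at -1.32 and 1.70.

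The mean of both edited lines was called different from wild type in 882 of 11542 genes (7.64%), 364 higher (3.15%) and 518 lower (4.49%). The median difference over all tested genes was 0.001. In the counts per gene list below, rose and fell mean called in this comparison. The shares of all tested genes, 3.15% higher and 4.49% lower, stand beside those counts. Most of the called genes did not stay alike: in 477 of the 882 only the knockout was called against wild type, in 117 only the rescue, in 38 both were called in opposite directions, and in 1 neither was. In the other 249 both lines were called in the same direction, which makes them the pool from which the 59 were taken. These comparisons share the wild-type libraries. Knockout against wild type gave 2481 calls (21.5%), rescue against wild type 930 (8.06%) and rescue against knockout 3601 (31.2%). The knockout calls were 1172 higher and 1309 lower, and the rescue calls 493 higher and 437 lower.

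Without the batch as a block, the edited lines were called in 468 genes and 45 were alike. Without wild-type library 1 the calls fell to 430, without wild-type library 2 to 548, without batch 1 to 361 and without batch 2 to 511. Over these settings and 15 others, all members tested kept their direction. After quantile normalization 55 genes were alike, 15 higher and 40 lower, beside 10 and 49.

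Of the 249 genes, 166 had no call between rescue and knockout, and 51 of the 59 were among them. In the other 8 members rescue and knockout did differ, by less than the margin allows. Among genes just inside the margin, CCDC120 had means of 274 normalized counts in wild type, whereas the knockout had 81.8 and the rescue 116, and GPR65 had 26.6, 68.5 and 66.7. Just outside, EBF1, a B lineage transcription factor, had 2825.7, 2175.7 and 2252.1, and STAC3 had 358, 616 and 703. The margin thus passes between genes of much the same pattern.

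BEX3, on the X chromosome (103376340 to 103378077), belongs to the small brain-expressed X-linked proteins and binds the p75 neurotrophin receptor. It stood at 918, 1156.2 and 1125.8 normalized counts in wild type, at 3.89, 5.29 and 3.75 in the knockout and at 33, 55.4 and 55.6 in the rescue. Both lines lay far below wild type, and the groups did not overlap. The mean of the edited lines was 40.8-fold lower, with a difference of -1.85 (SE 0.044, adjusted p = 7.79e-09 in limma).

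The rescue mean of BEX3 was 48 ± 13 and the knockout mean 4.31 ± 0.855 normalized counts (SD, n = 3), and rescue minus knockout was 0.35 (95% interval 0.24 to 0.46, adjusted p = 0.000523 in limma). BEX3 met the rule since both lines were several times farther from wild type than from each other on this scale.

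TCEAL4 and TCEAL1, relatives of BEX3 that resemble a transcription elongation factor, lie in the same stretch of the X chromosome. TCEAL4 had 80.1, 86.6 and 65.7 normalized counts in wild-type libraries, 3.89, 2.87 and 0.937 in knockout libraries and 10.2, 8.96 and 9.53 in rescue libraries. TCEAL1 had 73.3, 49.5 and 78.8, then 0, 1.96 and 4.22, then 13.8, 15.1 and 21, and did not meet the rule of likeness. For each gene the rescue libraries lay between the other groups, closer to the knockout.

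Of the 7 tested genes in a list of BEX, TCEAL and elongation factor A genes, 4 fell and none rose, with a median difference of -0.403. The members were BEX3, TCEAL4 and TCEA3, an elongation factor of the TFIIS family on chromosome 1. TCEA3 had 287 ± 44.4 normalized counts in wild type, whereas the knockout had 62 ± 8.41 and the rescue 27.8 ± 7 (SD, n = 3). It was farther from wild type in the rescue, the reverse of BEX3.

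WNT16 is a secreted Wnt ligand, and FZD6 is a Frizzled receptor for such ligands. WNT16 had 1835.4, 2109.5 and 1705.4 normalized counts in wild type, whereas the knockout had 729, 814 and 764 and the rescue 619, 589 and 656. It was 2.71-fold lower in the edited lines, with no overlap (difference -0.94, SE 0.051, limma adjusted p = 2.65e-06). FZD6 averaged 110.0 in wild type, whereas the knockout averaged 20.2 and the rescue 10.3.

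Of 26 tested Wnt pathway genes 4 fell and 1 rose, with a median difference of -0.087. TCF7, a nuclear effector of the pathway, fell from 161 to 271 normalized counts across wild-type libraries to 103 to 136 in the knockout and 82.5 to 107 in the rescue; its call was lost without batch 1 (adjusted p = 0.0698 in limma). The gene that rose was the ligand WNT5B, at 3410.1 to 3537.3 in the knockout against 2057.5 to 2607.7 in wild type, with the rescue overlapping wild type at 2169.6 to 2872.9. Its adjusted p was 0.0515 without the block and 0.0751 without batch 1 (limma).

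Among transcriptional regulators, BCL11A encodes a zinc finger repressor needed for B cell development (chromosome 2, 60450520 to 60555154). It stood at 461, 342 and 506 normalized counts in wild type, at 99.4, 65.2 and 132 in the knockout and at 123, 132 and 90.9 in the rescue. The edited lines overlapped each other and were 4.08-fold below wild type, with no library in between.

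TEAD4, the DNA-binding partner of the Hippo pathway's coactivators, fell from 543 ± 84.3 normalized counts to 226 ± 20.1 in the knockout and 199 ± 20.7 in the rescue (SD, n = 3). BEND4, which carries a BEN domain, had 2002.6 ± 263, 1013.8 ± 122 and 844 ± 72.6 in the same order. ZNF518B, a zinc finger protein, had 250.0 ± 19.1, 67.1 ± 18.9 and 76 ± 5.39. ZNF154 and PRDM15, further zinc finger proteins, were lower by 2.09-fold and 1.26-fold; for PRDM15 the range of the edited libraries overlapped that of wild type.

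Several members are metabolic enzymes. ASS1, which makes argininosuccinate for arginine synthesis, had 1839.7, 1588.3 and 1277.3 normalized counts in wild-type libraries, 918, 822 and 742 in knockout libraries and 1047, 857 and 725 in rescue libraries. Every edited library was below the lowest of wild type, and the fall was 1.84-fold. SMS, the spermine synthase, fell 1.49-fold to almost equal means of 2413.3 ± 54.2 and 2423.4 ± 125 from 3594.4 ± 223 (SD, n = 3).

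SCCPDH, a saccharopine dehydrogenase-like protein, had 2085.7 ± 148 normalized counts in wild type, whereas the knockout had 539 ± 42.2 and the rescue 869 ± 45.6 (SD, n = 3). Rescue minus knockout was 0.38 (95% interval 0.27 to 0.50), so the rescue lay nearer to wild type. MT1E, a metal-binding metallothionein, had 172 ± 38.3, 9.5 ± 5.19 and 11 ± 12.3; its close paralogs can exchange reads. MGMT, which removes alkyl groups from guanine in DNA, had 881 ± 98.7, 641 ± 23.8 and 630.0 ± 22.5.

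Of 25 tested ketone body and fatty acid oxidation genes, 4 fell and 1 rose, with a median difference of -0.011. ACAT1, the thiolase that acts beside OXCT1 in ketone use, had 1375.1, 1644.2 and 1635.2 normalized counts in wild type, whereas the knockout had 1215.1, 1183.8 and 1267.7 and the rescue 837, 871 and 905. Both lines were lower, the rescue more so, and ACAT1 was not alike. ECI2, an isomerase of fatty acid oxidation, fell by 0.28 (difference -0.28, limma adjusted p = 0.00454), with adjusted p = 0.0513 without batch 2 and 0.0514 without batch 3.

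Replication-dependent histone genes, whose messages are made in S phase and mostly lack a poly(A) tail, gave 5 members. H1-2, a linker histone on chromosome 6 (26055787 to 26056428), stood at 729, 1277.7 and 1441.5 normalized counts in wild type, at 193, 242 and 289 in the knockout and at 297, 295 and 254 in the rescue. The edited libraries overlapped each other, and all lay below the lowest wild-type library. H2BC12, a core histone of the same chromosome, had means of 918, 312 and 229. H2AC6, H2BC11 and H4C9 were also members, lower by 3.78-fold, 3.75-fold and 2.79-fold.

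Of the 28 tested histone genes in the list, 10 fell and none rose, and all 28 differences were below 0, with a median of -0.152. Their counts summed to 3531.1, 5202 and 5860.7 in wild type, whereas the knockout had 1912.8, 1744.3 and 3130.7 and the rescue 1932.2, 1934.7 and 2039.5. The sums did not overlap, although knockout library 3 came near wild-type library 1. Without H1-2 they did overlap, with 2841.8 in knockout library 3 against 2801.9 in wild-type library 1. Histone paralogs share reads, so single genes are uncertain. The labels name a poly(A) kit and a ribosome-depleted total RNA kit without saying which library had which, and how the kit bears on these messages was not tested. In a list of 30 DNA replication genes 1 fell and none rose in the mean of both lines. Each line set singly against wild type gave more lower calls there, 7 for the knockout and 3 for the rescue, with 0 higher. Over all 11542 tested genes 1309 were called lower in the knockout and 437 in the rescue. In 26 genes of G2 and mitosis 1 rose and none fell in the mean. Taken singly, the knockout had 3 of these up and 1 down, and the rescue had 0 either way. Over all tested genes the knockout had 1172 up and 1309 down, and the rescue 493 up and 437 down.

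**Figure D2:**
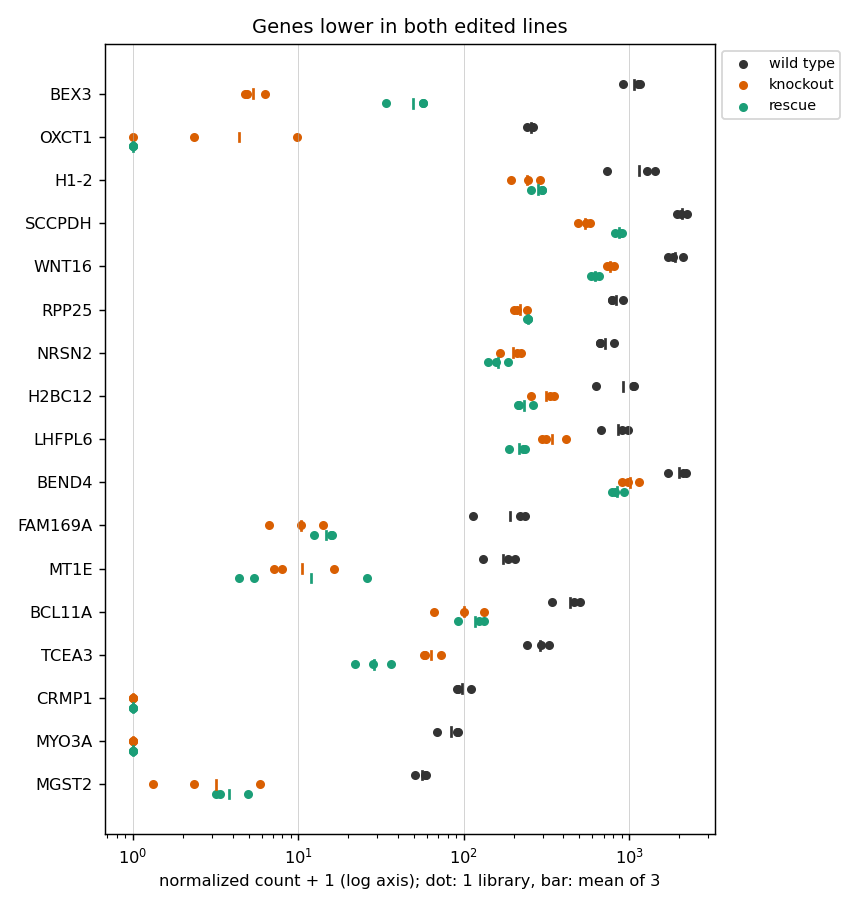
Normalized count plus 1 on a log axis for 17 genes lower in both edited lines; each dot is 1 library (black wild type, orange knockout, green rescue) and each bar the mean of 3. In every gene shown the 3 wild-type dots lie to the right of the 6 others, and OXCT1, CRMP1 and MYO3A reach 0 counts at the left edge.

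NRSN2, a vesicle membrane protein of neurons, had 667, 804 and 661 normalized counts in wild-type libraries, 208, 165 and 221 in knockout libraries and 139, 183 and 156 in rescue libraries. SYT11, a synaptotagmin of vesicle traffic, had means of 139, 2.43 and 9.89, and PPP1R1B, the dopamine-regulated phosphatase inhibitor, had 208, 28.6 and 42.3. KIFBP, a kinesin-binding protein, had 698, 275 and 272.

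Of 13 tested neuronal genes 4 fell and 1 rose, with a median difference of -0.067. CRMP1 and NRSN2 are the members among them. MLLT11 and GNG4 were called as well but did not share a direction between the lines. MLLT11 stood at 1381.5 to 1984.8 normalized counts in wild type, at 327 to 415 in the knockout and at 3034.2 to 3122.3 in the rescue; GNG4, a G protein subunit, had 382 to 494, 261 to 274 and 1207.1 to 1306.6. Both were below wild type in the knockout and above it in the rescue, as SOX11 was. The call of MLLT11 was lost without batch 1 (adjusted p = 0.129 in limma), batch 3 (0.0733), wild-type library 1 (0.0855) or wild-type library 3 (0.056).

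ICAM3, a ligand of the integrin LFA-1 on leukocytes, had 897, 937 and 852 normalized counts in wild type, whereas the knockout had 458, 448 and 568 and the rescue 455, 525 and 520.0, a fall of 1.81-fold. The bradykinin receptor BDKRB2 had means of 345, 86.4 and 73.7, and the membrane protein LHFPL6 had 854, 341 and 215. ADCY3, an adenylyl cyclase, had 546, 282 and 312.

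Of 19 tested lymphocyte trafficking and adhesion genes 5 rose and 5 fell. CD24, an adhesion protein, fell to 4.29 to 7.05 normalized counts in the knockout from 1641.5 to 1909.9 in wild type, and stood at 1051.3 to 1244.1 in the rescue. S1PR4, a sphingosine phosphate receptor, rose from 59 to 90.8 across wild type to 382 to 595 in the knockout and 155 to 317 in the rescue. SIRPA, the receptor of CD47, had 428 to 566, 254 to 296 and 64.9 to 103. ITGB7, an integrin chain, had 1293 to 1381.6 in the knockout against 351 to 426 in wild type, and the rescue overlapped wild type at 324 to 422.

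EEF1A2, a translation elongation factor, was an abundant gene with a small change. It had 14454.6 ± 1150.9 normalized counts in wild-type libraries, 10768.1 ± 161 in knockout libraries and 10212.4 ± 298 in rescue libraries (SD, n = 3). RPP25, a protein of RNase P and RNase MRP, was less abundant and fell further, with 829 ± 79.1, 217 ± 21.7 and 242 ± 0.924. Over all 49 lower members the fall in normalized counts had a median of 3.78-fold, 39 fell at least 2-fold, 10 had a mean under 10 normalized counts in the edited lines, and in 47 no edited library reached the lowest wild-type library (4.89% of all tested genes were without overlap in either direction). These separations follow from how the genes were chosen.

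The remaining lower members included the glycosyltransferase B3GNT7, at means of 150.0, 35.5 and 30.8 normalized counts in wild type, knockout and rescue, and the disulfide isomerase PDIA2, at 1218.5, 683 and 640.0. FAM169A had 188, 9.39 and 13.7, and the immediate early-like gene IER5L 962, 557 and 578. At low levels stood the exonuclease EXD2 at 73, 6.59 and 8.29, the Rab5-binding RIN2 at 40.9, 6.8 and 5.62, FSTL5 at 54, 12.9 and 14.3, and ANKRD29 at 52.1, 12.2 and 13.3. In each of these 8 genes knockout and rescue lay together, below every wild-type library.

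MDM2, the ubiquitin ligase that restrains p53 and is itself a p53 target, was the smallest fold change among the lower members. It stood at 6838.8, 7108.4 and 5909.2 normalized counts in wild type, at 5226.4, 6109.3 and 4620.8 in the knockout and at 5232, 5976.6 and 4650.2 in the rescue. Batch by batch the edited lines lay below wild type, but the ranges overlapped, and without the batch as a block the adjusted p was 0.115 in limma.

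Of 22 tested p53 targets 10 fell and none rose, beside 4.49% and 3.15% of all tested genes, with a median difference of -0.153. Against wild type 5 were called lower and 1 higher in the knockout, beside 1309 and 1172 of all 11542 tested genes. In the rescue 12 were called lower and none higher, beside 437 and 493. Of the 10 that fell, 9 also differed between rescue and knockout. CDKN1A, the inhibitor of cyclin-dependent kinases, had 7902.2, 7139.8 and 8436.7 normalized counts in wild-type libraries, 6944.6, 6589.9 and 7940.3 in knockout libraries and 5600.4, 4100.0 and 5117.6 in rescue libraries. TNFRSF10B, a death receptor, had 1447.6 to 1827, 1238.8 to 1404.2 and 976 to 1247, and ZMAT3, an RNA-binding p53 target, 1540.1 to 1714.9, 1323.7 to 1428.6 and 1111.5 to 1140.9. In these genes the rescue was farther from wild type than the knockout, and the list's median difference was -0.088 for the knockout and -0.242 for the rescue.

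The 10 higher members included proteins of lymphocytes and of the actin cytoskeleton. APOBEC3G, a cytidine deaminase that restricts retroviruses (chromosome 22, 39077005 to 39087743), had 643, 801 and 794 normalized counts in wild type, whereas the knockout had 1783.8, 1877.2 and 2040.5 and the rescue 1318.9, 1644.9 and 1652.1. All 6 edited libraries exceeded wild type, by 2.31-fold in the mean, and the knockout was above the rescue (rescue minus knockout -0.22, 95% interval -0.33 to -0.12).

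Other members of the APOBEC3 cluster were looked at after the value of APOBEC3G was seen. Of 6 tested, 5 rose, 5 were called higher in the knockout and 5 in the rescue, though not the same 5. Over all 11542 tested genes 1172 were called higher in the knockout and 493 in the rescue. APOBEC3F had means of 72.9, 171 and 221 normalized counts in wild type, knockout and rescue, APOBEC3D 86.3, 291 and 219, and APOBEC3C 3261.8, 7349.2 and 4706.1. APOBEC3H was near wild type in the rescue, at 61, 189 and 75.3, and APOBEC3B near wild type in the knockout, at 760.0, 751 and 1104.2. The genes are close paralogs, so reads may be split among them.

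PRF1, the pore-forming perforin of killer lymphocytes, stood at 91.8, 76.6 and 119 normalized counts in wild type, at 281, 266 and 394 in the knockout and at 388, 397 and 481 in the rescue. The edited libraries were all higher, 3.84-fold in the mean. FCMR, the IgM Fc receptor of B cells, had 132, 374 and 288, then 475, 548 and 534, then 412, 637 and 488. Its wild-type libraries differed among themselves by more than the edited ones, and the lowest edited library lay close above the highest of wild type.

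Of 8 tested T and NK cell genes 5 rose and none fell, with a median difference of 0.193. CD4 rose from 174 to 186 normalized counts to 818 to 888 in the knockout and 331 to 387 in the rescue. LCK, a Src-family kinase, had 1481.2 to 1603.7 in the rescue against 685 to 809 in wild type, and the knockout overlapped wild type at 640.0 to 732. CD3E had 36 to 39, 67.6 to 93.1 and 69 to 89.3, but its call was lost in 4 of the 19 alternative settings in which it was tested. The markers of T and NK cells, 6 of 8 in the table, summed to 10.2 to 14.3 CPM in wild type, whereas the knockout had 16.6 to 19.7 and the rescue 14.1 to 14.8, and CD3D, CD8A and GNLY stayed below 1 CPM in every library. The 4 myeloid markers in the table stayed below 1 CPM each, and their sum was 0.437 to 0.649 CPM in wild type, at most 1.36 for the knockout and 1.28 to 1.62 for the rescue, with no overlap between wild type and the edited lines. LYZ and ITGAM were each higher in all 6 edited libraries than in wild type. Among the T and NK cell markers CD3E and NKG7 were likewise higher in all 6. CD8A went the other way, lower in all 6 edited libraries than in any wild-type library, and CD3D and GNLY overlapped wild type. CD3G made up most of the T and NK cell sum. Its knockout values lay above wild type and its rescue values within the wild-type range. The part of other cells in the rises named here was not tested beyond these levels.

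GMFG, which prunes branched actin, had 139, 171 and 230.0 normalized counts in wild-type libraries, 450.0, 520.0 and 548 in knockout libraries and 599, 695 and 699 in rescue libraries. CNN2, a calponin that binds actin, had 748, 761 and 994, then 1435.4, 1452 and 1463, then 1462.9, 1379.7 and 1660.7. The 3 groups were separate for GMFG, and for CNN2 the edited lines overlapped each other.

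Of 34 tested actin-binding genes 9 rose and 6 fell, and 14 of these 15 differed between rescue and knockout. ABLIM1, an actin-binding LIM protein, had 293 to 380.0 normalized counts in wild type, whereas the knockout had 701 to 790.0 and the rescue 1722.3 to 1859.9. CORO2B, a coronin, had 483 to 778, 1595.1 to 1769.5 and 874 to 1192.4, and TPM2, a tropomyosin, 841 to 1061.5, 394 to 461 and 498 to 651. These genes moved the same way in both lines, by unequal amounts.

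SLA, an adaptor that dampens antigen receptor signalling, had 28.1, 78.7 and 41.3 normalized counts in wild type, whereas the knockout had 143, 241 and 192 and the rescue 132, 251 and 165. It was highest in batch 2 in each group. RRAS2, a Ras-family GTPase, had means of 250.0, 423 and 431, TANC1, a scaffold protein, 48.5, 121 and 119, and SERPINB1, an inhibitor of neutrophil proteases, 481, 672 and 678. GPR65, a receptor that senses protons, had 24.2, 13.7 and 41.8, then 65.3, 56 and 84.2, then 48.2, 58.8 and 93. In all 10 higher members the lowest edited library was above the highest wild-type library, which again follows from the choice.

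**Figure D3:**
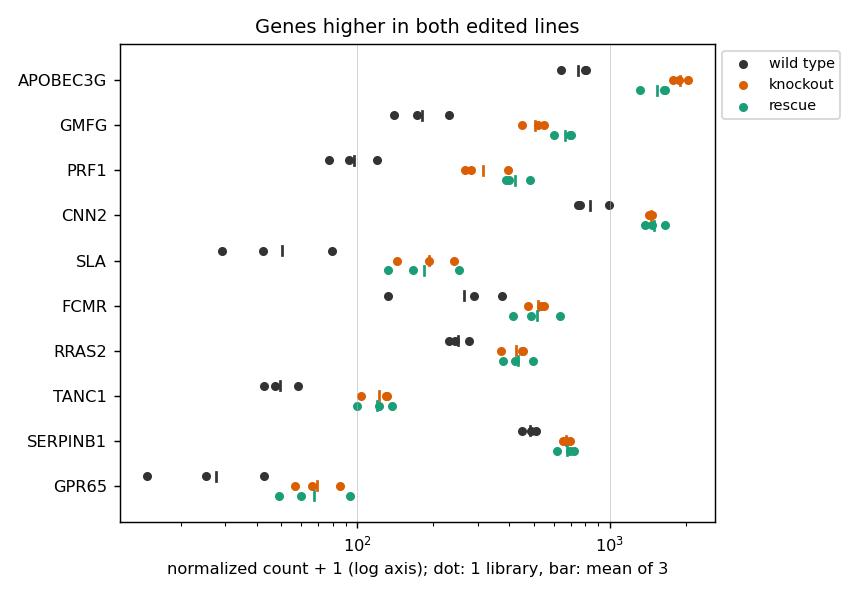
Normalized count plus 1 on a log axis for the 10 genes higher in both edited lines; each dot is 1 library (black wild type, orange knockout, green rescue) and each bar the mean of 3. In each gene the 6 edited dots lie to the right of the 3 wild-type dots, most closely for FCMR and GPR65.

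Knockout and rescue were close in most members. In the 55 members with reads in both lines, the ratio of the rescue mean to the knockout mean had a median of 1.00, and 39 of these ratios lay within 1.25-fold and 47 within 1.5-fold. In 5 members the lines differed more than 2-fold, all from low levels in the edited lines: BEX3, SYT11 (rescue over knockout 4.07), TCEAL4 (3.73), DTX3 (2.90) and TCEA3 (0.447). DTX3, a ubiquitin ligase of the Deltex family, had means of 104 in wild type, whereas the knockout had 6.21 and the rescue 18. The scale on which the rule was applied compresses such low counts, so likeness there means nearness relative to wild type.

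**Figure D4:**
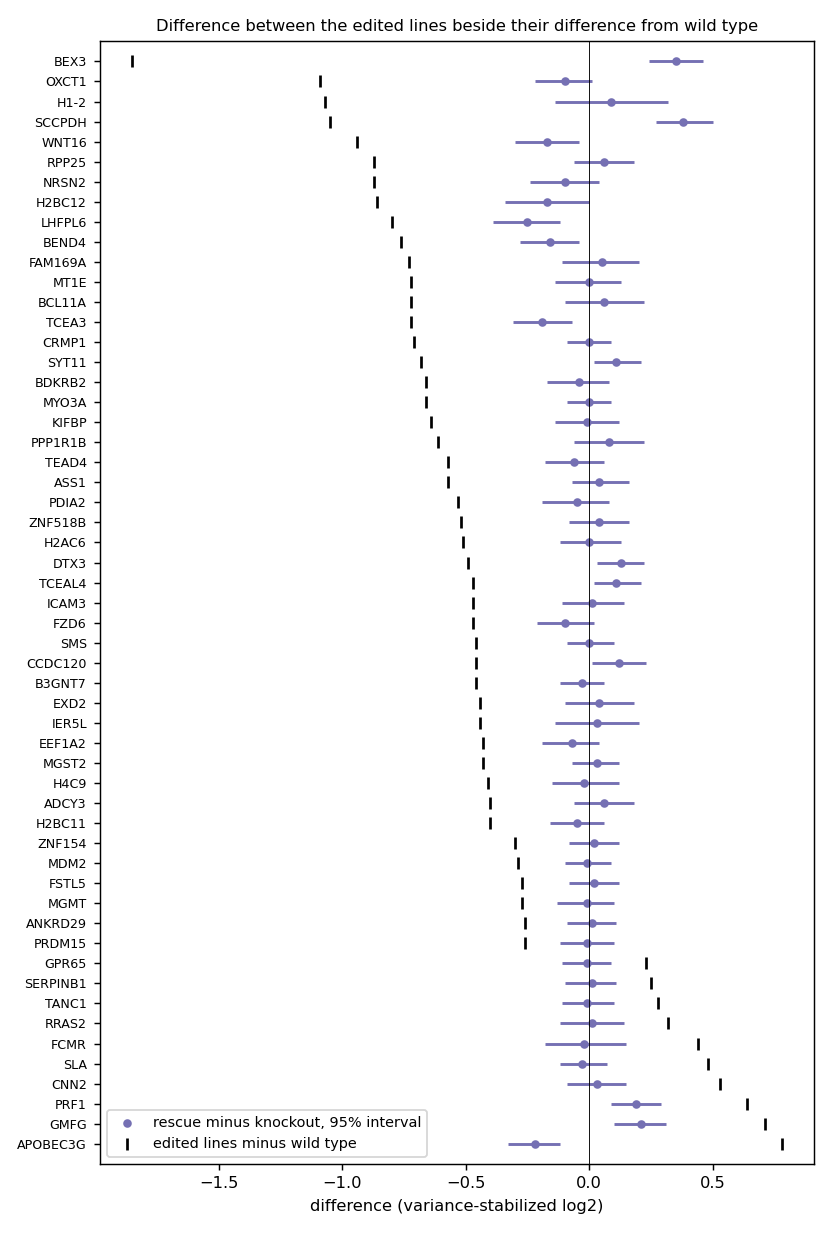
For the 55 members with at least 50 normalized counts on their higher side, the purple dot and line give rescue minus knockout with its 95% interval and the black tick gives the edited lines minus wild type, both on the variance-stabilized log2 scale. The interval includes 0 in 42 of them and excludes it in 13, among them BEX3 at 0.35 and SCCPDH at 0.38.

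Of 31 gene lists examined, 10 held a member, and 41 of the 59 members were in no list. In the list of 19 tested B cell identity genes 4 rose and 5 fell, with a median difference of -0.099, and FCMR was the member. EBF1 stood at 2526.1 to 3033 normalized counts in wild type, at 1983.9 to 2460.9 in the knockout and at 1935.2 to 2644.3 in the rescue, and FCRLA 9835.9 to 11773.5, 7611.1 to 8621 and 8424 to 10260.8. Without the block their adjusted p-values in limma were 0.0946 and 0.0637. BANK1, an adaptor of B cell receptor signalling, had 1320.0 to 1519.8 in the knockout against 745 to 829 in wild type, and the rescue overlapped wild type at 684 to 787. Its adjusted p rose to 0.118 without batch 1, 0.0771 without batch 3 and 0.097 without wild-type library 1.

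Of 14 tested genes tied to SOX11 by earlier work 1 rose and 4 fell, and all 5 also differed between rescue and knockout. PDGFA, a growth factor, had 3000.0 to 3746.4 normalized counts in wild-type libraries, 1357.4 to 1718.4 in knockout libraries and 2776.7 to 3187.2 in rescue libraries, and DBN1, an actin-binding drebrin, 9363.9 to 11861.8, 4785.9 to 5048.7 and 11878 to 12797.6. TEAD2 reached 4.91 in wild type at most, 1.65 in the knockout at most, and 69.4 to 88.4 with SOX11 restored. For PDGFA the rescue overlapped wild type, and for DBN1 it lay just above it.

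MHC class II genes showed 5 rises of 16 tested in the mean of both lines, all 5 with a difference between rescue and knockout. Against wild type 11 were called higher and none lower in the knockout, beside 1172 and 1309 of all 11542 tested genes. In the rescue none was called higher and 5 were called lower, beside 493 and 437. In the mean of both lines, MHC class I (14 tested) and MYC with ribosome biogenesis (26 tested) had no call. Cytosolic ribosomal proteins (34 tested) and the unfolded protein response (25 tested) had 1 lower gene each in that mean. Of the 21 tested genes of the immediate early and heat shock response 6 fell and 1 rose in the mean. Of these called genes 6 also differed between rescue and knockout. Taken singly, the knockout had 10 lower and 4 higher there, and the rescue 2 lower and 1 higher. In 27 genes of DNA methylation and silencing DNMT3A alone was called in the mean. It had 1738.1 ± 76.9 normalized counts in wild type, whereas the knockout had 811 ± 81.3 and the rescue 1567.7 ± 77.4 (SD, n = 3).

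**Figure D5:**
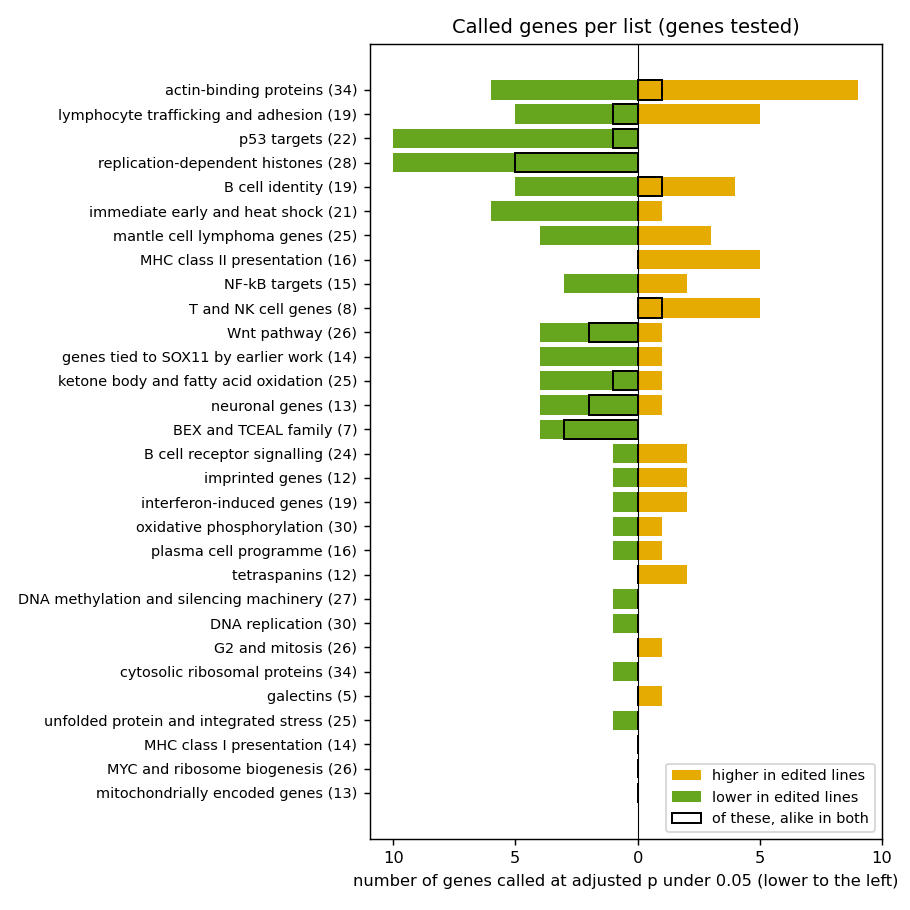
Bars give the number of genes called higher (right) and lower (left) in the edited lines against wild type at adjusted p under 0.05 for each list with at least 5 tested genes, with the number tested in brackets; black outlines mark genes alike in both lines. Replication-dependent histones have 10 lower genes, 5 of them alike, and p53 targets 10 lower genes, 1 of them alike.

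The members were spread over 22 of 23 chromosomes, Y left out. The median difference of the edited lines lay between -0.038 and 0.022 on every chromosome, so no chromosome's genes were shifted as a whole by more than that. Chromosome 6 held 6 members among 544 tested genes, 5 of them histones, chromosome 4 held 5 among 369 and chromosome X 4 among 397, with BEX3 and TCEAL4 close together. Chromosome 3 held none among 617.

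Of the 98 nearest tested neighbours of lower members, 7 were called lower (7.14%), beside 4.49% of all tested genes, and the neighbours' median difference was 0.01. Of the 20 nearest tested neighbours of higher members, 3 were called higher, beside 3.15% of all tested genes: APOBEC3F and APOBEC3H on the sides of APOBEC3G, and DAPL1 beside TANC1. H2BC12 and H4C9 were each other's neighbours. They are members themselves and gave 2 of the 7 called neighbours of lower members. RAPGEF2, another of these 7, starts 2280884 bases from FSTL5. A gene beside more than 1 member was counted for each, as RAB40A beside BEX3 and TCEAL4 and H2AC11 beside H2BC11 and H4C9. NPW, a neuropeptide gene, lies beside SLC9A3R2, which was lower by 0.42 (difference -0.42), and PRDM15 lies next to MX1 among tested genes, at -0.37. No nearest tested neighbour of OXCT1, CRMP1, MYO3A or MGST2 was called. Within 500 kb, however, 1 of 2 tested genes around OXCT1 was called lower. No tested gene lay within 500 kb of CRMP1 or MYO3A, so their surroundings could not be judged.

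RefSeq promoters of 300 bases (250 before to 50 after the start, GRCh38.p14) were matched for 45 of the 59 members. Promoters rich in CG, with G and C at 50% or more and an observed to expected CG ratio of at least 0.6, made up 26 of 37 for the lower members (70.3%), 3 of 8 for the higher members (37.5%) and 82.3% of all tested genes with a promoter. The SOX core word ACAATG, on either strand, was in none of the 37 and none of the 8, beside 6.0% of all and 7.6% of those of the genes called in the knockout and reversed in the rescue. The word ACAAAG, on either strand, was in 5 of 37, 2 of 8, 10.3% and 12.9%.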

How the data were processed

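RNA-seq libraries of wild-type, SOX11 knockout and SOX11 rescue Z138 cells were compared, 3 per group and 1 per labelled batch. The deposited table of 16586 genes holds log2 values, variance-stabilized by the authors although its name calls them log CPM: all 9 libraries share the lowest value 8.5985. Tools named per the submitters' processing notes, with no role or order, are kallisto 0.46.1, DESeq2 1.24.0, R 4.3.2, Trimmomatic 0.40 and FastQC 0.11.9, with the build GRCh38.p13. The sources used here do not say which library had which kit or read layout.

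Normalized counts and CPM were recovered by inverting the transform, whose constant was taken as 387.6 (2 raised to the minimum), CPM being the share of a library's summed counts. Among genes with 1 transcript, 81.6% to 98.0% of low values then lay within 0.05 of a whole multiple of a step per library, taken as the worth of 1 read. Estimated depths of 30.7 to 40.7 M reads rest on this step, and counts cover no error beyond sampling. Of the genes, 11542 with at least 1 CPM in 3 libraries were tested and 5044 left out. The 17 members with under 1 CPM in every edited library passed this filter through wild type alone.

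limma 3.58.1 (R 4.3.3) was fitted to the deposited log2 values of all 9 libraries with group means, batch as a block and a trended prior, and p-values were adjusted over all tested genes by the Benjamini-Hochberg method. The fit was tested on simulated data. The numbers 1 to 3 are labelled batches, and libraries of 1 batch deviated together from their groups' means (correlations of 0.187 to 0.51), so the block was kept. Differences are on the variance-stabilized scale, which understates folds of low genes; folds are ratios of mean normalized counts. Positions are from GENCODE 29, which held 16461 of the genes. Genes named are the 14 largest differences in each direction among members with mean log2 CPM of at least 1, members under 5 normalized counts on 1 side and at least 50 on the other, up to 4 called genes per list with a member by smallest adjusted p, and members near the margin; further members were named after their values were seen. The values of 1 member are not reported here. Members, lists and tests were chosen with earlier results of these data known. Alternatives were no block, other filters, log2(CPM + 1), median centring, quantile normalization, other priors and margins, and leaving out each library or batch.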

Additional observations from a re-analysis of the deposited data

Results flagged for a closer look

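Among the genes named in the comparisons, 39 had a rescue minus knockout difference called by limma (Benjamini-Hochberg adjusted p under 0.05), so that their effects in the 2 edited lines differed by a test of the difference itself. Of these, 8 were among the 59 alike genes. The variance-stabilized log2 difference of rescue minus knockout was 0.35 for BEX3, 0.21 for GMFG, 0.19 for PRF1 and 0.38 for SCCPDH, whose levels were higher in the rescue. It was -0.22 for APOBEC3G, -0.16 for BEND4, -0.25 for LHFPL6 and -0.19 for TCEA3, whose levels were higher in the knockout. SOX11 itself differed by 3.03 (adjusted p = 2.59e-09).

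Of the genes named from the lists and outside the alike set, those higher in the rescue had differences of 2.1 for CD24, 1.95 for MLLT11, 1.21 for DBN1, 1.18 for GNG4, 0.83 for ABLIM1, 0.76 for PDGFA, 0.73 for LCK, 0.56 for TEAD2, 0.22 for TPM2, 0.21 for TCEAL1 and 0.2 for FCRLA. Those higher in the knockout had differences of -1.05 for ITGB7, -0.63 for CD4, -0.61 for BANK1, -0.51 for CORO2B, -0.51 for SIRPA, -0.48 for CDKN1A, -0.42 for S1PR4, -0.4 for WNT5B, -0.36 for SLC25A20, -0.31 for ACAT1, -0.2 for TNFRSF10B and -0.19 for ZMAT3. Adjusted p-values over these 23 genes ran from 1.59e-08 to 0.0115. Further genes named beside these were higher in the rescue by 0.62 for DNMT3A and 0.34 for APOBEC3B, and higher in the knockout with differences of -0.57 for APOBEC3C, -0.36 for APOBEC3H, -0.15 for APOBEC3D, -0.51 for MX1 and -0.17 for CCND1 (adjusted p of 0.0297 at most in limma). Each comparison rests on 3 libraries against 3.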

How the results depend on the processing

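The 882 genes called in the edited lines against wild type became 468 without the replicate block, 361 without batch 1 and 511 without batch 2. Leaving out a single library gave 430 to 796, the lowest values without wild-type library 1 (430) and wild-type library 2 (548). The cause was not tested, though fewer libraries enter these fits. The 59 alike genes became 7 with a margin of 0.25 times the difference, 166 when rescue minus knockout was only required not to be called, and 38 under the stricter filter, which tests 39 of the 59. Leaving out a single library gave 42 to 74. Members still alike numbered 45 without the block, 43 after quantile normalization and 39 to 58 when 1 library was left out.

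For the 60 single-gene differences followed, 1161 of 1188 alternative values kept their direction and their side of the threshold, 27 lost the call and none reversed. Without the block the calls of EBF1, FCRLA, MDM2, SLC25A20 and WNT5B were lost, and no other of these 60 lost its call there. Of all 59 members, followed singly or not, 57 were still called without the block. SLC25A20, a carnitine carrier, was called at 0.21 (adjusted p = 0.0147) and lost its call without any 1 of the wild-type libraries. Estimated depth limits what can be said of genes at 0: 3 reads correspond to 2.58 to 3.40 normalized counts per library.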

Other observations

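Genes that passed from under 5 to at least 50 normalized counts, or the reverse, between some pair of groups were counted over the whole table outside chromosome Y, with no test. In 12 genes the knockout was under 5, wild type in between and the rescue at least 50: ATP1B1, GXYLT2, HEG1, LGALSL, MYCN, NIBAN2, NKAIN4, PDZD4, RNF144A, TNNI1, TRAC and USP41. In 8 genes the mean was under 5 in the knockout and at least 50 in both other groups: ARHGEF10L, CARMIL1, CHST10, KLHL14, PDE9A, SMAD1, TMSB15A and TTLL7. In 5 genes it was under 5 in wild type and knockout and at least 50 in the rescue: ARVCF, CACHD1, PRRT2, RAG2, a recombinase subunit of immature lymphocytes, and TEAD2. In 7 genes wild type was at least 50, the knockout under 5 and the rescue in between: BEX3, MEF2C, RTN4R, SPATA13, SYT11, TCEAL1 and TCEAL4. GNG2 was under 5 in wild type, at least 50 in the rescue and in between in the knockout, and MAP7D2 was under 5 in wild type, at least 50 in the knockout and in between in the rescue. These stand beside the 5 genes that were under 5 in both edited lines.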
